A study of Mus musculus with 4 samples.

Results

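The genes described here are 10 regulators of apoptosis of the Bcl2 family, measured by RNA-seq in cells of the Pdgfra lineage of the newborn mouse forebrain. They were chosen by name: each is the row of the deposited expression table that carries its symbol, so they are 10 of 54348 rows. By role they are 3 pro-survival genes (Bcl2, Bcl2l1 and Mcl1), 2 effectors (Bax and Bak1) and 5 BH3-only genes (Bad, Bid, Bcl2l11, Bbc3 and Pmaip1). Levels are in TPM, transcript counts scaled to a fixed library total and thus a share of a library's RNA after division by transcript length, so levels of different genes can be set beside each other.

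The fusion group consisted of 2 libraries from PdgfraCreER;MN1:BEND2;AI14 mice and the control group of 2 libraries from PdgfraCreER;AI14 mice. Both groups carried PdgfraCreER, a tamoxifen-dependent Cre recombinase driven from Pdgfra, and AI14, a reporter allele that switches on the red protein tdTomato once recombined. The fusion group also carried MN1:BEND2, a fusion gene found in the brain tumour astroblastoma. All mice received tamoxifen on postnatal days 0 and 1 and were killed on postnatal day 4, and tdTomato-positive cells that excluded the dye DAPI, hence live cells, were sorted from forebrains dissociated with papain. The labels leave unsaid whether the replicates of a genotype were different animals, so p-values below reflect the spread among the libraries, possibly a technical one. Pdgfra-driven Cre marks oligodendrocyte precursor cells and also some fibroblasts, so a sort on the reporter can hold more than 1 cell type.

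Bcl2 family proteins decide whether the outer mitochondrial membrane stays closed. The effectors Bax and Bak1 assemble into pores that let cytochrome c reach the cytosol, the pro-survival proteins bind and restrain the effectors, and the BH3-only proteins are stress sensors that bind the pro-survival proteins or activate the effectors. In the developing brain, surplus neurons and oligodendrocyte lineage cells are removed by apoptosis, and Bax is needed for much of the neuronal part. The activity of these proteins is set largely after transcription, by protein turnover (Mcl1), phosphorylation (Bad) and cleavage (Bid), none of which RNA-seq measures.

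Start-site sequences are shown for 3 genes that behaved differently in these libraries: Bax, the member with the lowest log2 change, Mcl1, the member at nearly the same TPM in both groups, and Bcl2a1b, a pro-survival relative that was higher in the fusion libraries. Each is the 250 bases before the start site on the gene's strand, from RefSeq on GRCm38.p6. The regions are chr7:45466899-45467148 on the minus strand for Bax, chr3:95658471-95658720 on the plus strand for Mcl1 and chr9:89199023-89199272 on the plus strand for Bcl2a1b. Capitals mark the motifs found on either strand among the 9 searched, namely CACGTG and GGGCGG in Bax, CCGGAAG and GGGCGG in Mcl1, and GAGGAAGT and GGGCGG in Bcl2a1b.
Bax: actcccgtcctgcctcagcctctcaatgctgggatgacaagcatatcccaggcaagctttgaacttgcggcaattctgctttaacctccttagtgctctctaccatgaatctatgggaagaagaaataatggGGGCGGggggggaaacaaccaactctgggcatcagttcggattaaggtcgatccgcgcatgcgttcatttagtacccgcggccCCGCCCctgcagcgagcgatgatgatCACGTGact
Mcl1: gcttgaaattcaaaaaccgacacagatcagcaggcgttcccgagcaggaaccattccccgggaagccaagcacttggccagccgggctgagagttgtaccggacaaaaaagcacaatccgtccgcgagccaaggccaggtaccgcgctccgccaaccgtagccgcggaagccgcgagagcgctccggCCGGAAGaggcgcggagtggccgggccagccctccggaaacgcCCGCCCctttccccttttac
Bcl2a1b: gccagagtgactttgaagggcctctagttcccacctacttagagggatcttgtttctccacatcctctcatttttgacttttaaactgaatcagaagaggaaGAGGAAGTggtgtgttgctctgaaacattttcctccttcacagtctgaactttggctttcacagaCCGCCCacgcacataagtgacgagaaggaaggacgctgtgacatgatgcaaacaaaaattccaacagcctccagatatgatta

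RefSeq start windows, which also hold the 50 bases after the start, were found for 9 of the 10 members (15 windows, since some genes have several starts). The GC box GGGCGG was in 10 of these 15 windows and in 35.7% of all 32851 windows of the same length. By gene it was in 7 of the 9, and some Bbc3 windows overlap, so the same boxes are counted more than once. The GC content of the Bax, Mcl1 and Bcl2a1b windows was 57.3%, 65.7% and 46.7%, against a median of 52.7% over all windows. Over the 15 member windows it ran from 49.3% (Bcl2l1) to 78.0% (Bbc3), and only Bcl2l1 had windows below that median. The part of base composition in the count of GC boxes was not tested. The E-box CACGTG, the site of Myc and its relatives, was in 2 of the 15 windows (1 each of Bax and Bbc3) and in 7.15% of all windows. The ETS motif CCGGAAG was in 3 (Bcl2l1, Bcl2l11 and Mcl1), against 8.86% of all windows. The FOXO motif GTAAACA was in 2 (Bbc3 and Bcl2l11), against 3.65%. The PU box GAGGAAGT, a form of the site of the myeloid factor PU.1 that shares the core GGAA with the ETS motif, was in 2 (Bad and Bak1), against 3.20%. CCAAT was in 4 of the 15 windows and in 37.4% of all. The TATA box TATAAA, the cyclic AMP response element TGACGTCA and an interferon-stimulated response element were in 0 of the 15 windows and in 13.6%, 1.79% and 3.44% of all windows. These matches describe letters in a window and are not evidence of binding.

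The libraries differed in general properties that touch every value below. The share of TPM from mitochondrially encoded genes was 48.7% and 26.25% in the fusion libraries and 10.1% and 7.30% in the control libraries. TPM is a share, so what these genes take is not left for others. Genes with at least 1 TPM numbered 9050 and 10017 in the fusion libraries and 12772 and 13219 in the control libraries. Changes were estimated with limma on log2(TPM + 1) over the 12871 genes that reached 1 TPM in 2 or more libraries, with Benjamini-Hochberg adjusted p-values and a threshold of 0.05. The median change of all tested genes, fusion minus control, was -1.41, so each change is also given relative to that median or after median ratio scaling, which rescales each library by genes above 0 in all 4 and puts the median at -0.15. Of the label genes, Bend2 had 3.82 and 8.72 TPM in fusion libraries and was listed at 0 in both control libraries. Mn1 had 2.75 and 3.04 TPM in fusion libraries against 11.6 and 17.8 TPM in control libraries, and Pdgfra 123 and 192 TPM against 337 and 429 TPM. Summed TPM of 9 oligodendrocyte precursor markers was 458 and 588 in fusion libraries against 1272 and 1627 in control libraries, with no marker at 0. For 8 oligodendrocyte markers it was 203 and 183 against 2266 and 3181, and for 8 fibroblast markers 535 and 1063 against 53.9 and 148. The median changes of these lists were -1.30, -3.51 and 1.88, beside -1.41 of all genes. After median ratio scaling 1 of 9 precursor markers was higher and 0 lower. By then 6 of 7 tested oligodendrocyte markers were lower and 7 of 8 fibroblast markers higher, against 18.6% and 14.3% of all tested genes. In such sorted bulk samples fewer cells of a type and less RNA per cell cannot be told apart. The Y-linked gene Eif2s3y was listed at 0 in both fusion libraries and had 121 and 122 TPM in the control libraries, so sex and genotype cannot be told apart.

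Of the 10 members, 6 passed the filter on low values and were tested. Of these, 5 fell in the fusion libraries (Bax, Bad, Bid, Bcl2l1 and Bcl2), 0 rose, and Mcl1 did not pass the threshold; at an unadjusted p under 0.05 limma also gave 5 lower and 0 higher members, as it did without the trend and with robust hyperparameters. Over all tested genes 51.3% fell and 4.95% rose, so a fall by itself was common. Both fusion libraries lay below both control libraries for 5 of the 6 tested members, as they did for 71.1% of all tested genes. Bcl2, Bcl2l1 and Bid passed the filter only through the control libraries, and this alone puts both fusion values below both controls. The 71.1% includes such genes too, so both figures are only descriptive. After median ratio scaling 4 members fell (Bax, Bad, Bid and Bcl2l1) and 0 rose, against 18.6% and 14.3% of all tested genes, and at an unadjusted p under 0.05 Bcl2 was also lower and Mcl1 higher. The calls depended on having both control libraries: without control replicate 1 only Bcl2 was called lower, and without control replicate 2 the number called was 0, although 5 were lower at an unadjusted p under 0.05.

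**Figure D1:**
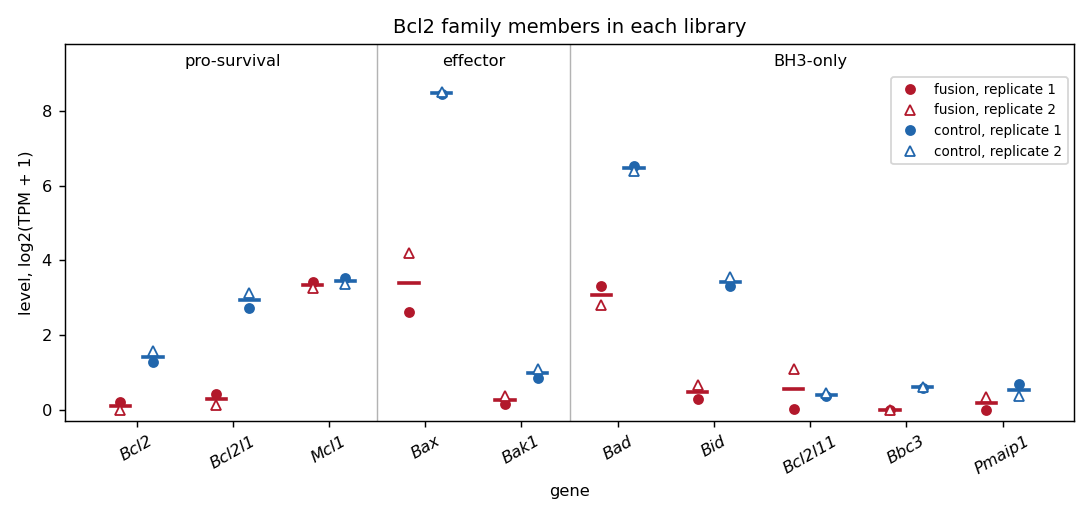
Levels of the 10 members as log2(TPM + 1) in each of the 4 libraries, by role, with fusion libraries (red) left of control libraries (blue) and a bar at the mean of each group. Bax and Bad are the highest genes in the control libraries and lie several log2 units lower in the fusion libraries, while the Mcl1 points of both groups overlap.

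Among the pro-survival members, Mcl1, whose short-lived protein holds Bak1 and several BH3-only proteins, had overlapping TPM in the groups. The gene lies at chr3:95658788-95663176 on the plus strand (coordinates of genes are from GENCODE M21 on GRCm38). It had 9.70 and 8.59 TPM in fusion libraries against 10.6 and 9.22 TPM in control libraries. The log2 change was -0.10 ± 0.40 (SE; limma, adjusted p = 0.841). That change was 1.30 above the median of all genes, and 81.6% of tested genes had a lower one. Among tested genes of its own library, Mcl1 ranked at the 77.1 and 68.9 percentiles in fusion libraries and at the 53.4 and 45.9 percentiles in control libraries. After median ratio scaling it had 22.0 and 12.9 rescaled TPM in fusion libraries against 6.16 and 4.62 in control libraries. The groups then no longer overlapped, but the log2 change of 1.496 ± 0.44 did not pass (limma, adjusted p = 0.0589). Over 16 alternatives the change of Mcl1 ranged from -0.19 to 1.70 and passed in 1, the correction for GC content and length (1.70, adjusted p = 0.0277, range over alternatives 0.0277 to 0.987), so its direction depends on the scaling.

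Bcl2l1, which encodes Bcl-xL, the pro-survival protein that restrains Bax and whose loss kills immature neurons in mice, fell. The gene, at chr2:152780668-152831728 on the minus strand, had 0.344 and 0.0902 TPM in fusion libraries against 5.56 and 7.79 TPM in control libraries, with no overlap. The log2 change was -2.65 ± 0.37 (limma, adjusted p = 0.0051), or -1.24 relative to the median. It still passed after median ratio scaling (-1.68, adjusted p = 0.0321), and not with quantile normalization (adjusted p = 0.0528) or the GC and length correction (-0.64, adjusted p = 0.291). Bcl2, the founding member (chr1:106538178-106714274, minus strand), was low throughout, with 0.145 TPM in fusion replicate 1, a listed 0 in fusion replicate 2, and 1.40 and 1.96 TPM in the control libraries. Its log2 change of -1.32 ± 0.24 passed (limma, adjusted p = 0.0092) and lay 0.09 above the median of all genes. It did not pass after median ratio scaling (-0.72, adjusted p = 0.078). At control values this low, adding 1 to TPM keeps the change from lying far below that median. With a pseudocount of 0.1 the change of Bcl2 was -3.49 (limma, adjusted p = 0.0147). The pro-survival members as a sum held 10.2 and 8.68 TPM in fusion libraries and 17.5 and 19.0 TPM in control libraries.

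Among the effectors, Bax had the lowest log2 change of the tested members. It had 5.14 and 17.2 TPM in fusion libraries against 352 and 361 TPM in control libraries, a ratio of fusion to control means of 0.0313 (11.2 ± 8.51 and 356 ± 6.65 TPM, SD, n = 2 each). The same ratio was close to this for Bcl2l1 (0.0325) and Bid (0.0409). Adding 1 to TPM limits the log2 change of such low genes, so the size of the lead of Bax depends on that scale. With a pseudocount of 0.1 the changes were -5.23 ± 0.64 for Bax, -4.52 ± 0.72 for Bcl2l1 and -4.40 ± 0.71 for Bid (SE). The control values of Bax lay close together and the fusion values farther apart, but both fusion values lay far below both controls. The log2 change was -5.08 ± 0.58 (limma, adjusted p = 0.00384), which is -3.67 relative to the median and lower than that of all but 1.10% of tested genes. After median ratio scaling it was -3.39 ± 0.43 (adjusted p = 0.0116), with the GC and length correction -3.14, and with TPM renormalized without mitochondrially encoded genes -4.58 (adjusted p = 0.00464). Bax passed in 14 of 16 alternatives, with adjusted p between 0.000342 and 0.117, the exceptions being the fits that left out 1 of the control libraries. Its rank among tested genes was at the 65.9 and 79.7 percentiles in fusion libraries and at the 95.6 and 95.7 percentiles in control libraries. The Bax gene (chr7:45461697-45466898, minus strand) shares 9.89% of its 31-base words with the gene model Gm45808 on the same strand, which was listed at 0 in fusion libraries and had 0.104 and 0.062 TPM in control libraries.

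Bak1, the other effector (chr17:27019810-27029009, minus strand), was below the filter and was not tested. It had 0.113 and 0.286 TPM in fusion libraries and 0.788 and 1.14 TPM in control libraries, so the groups did not overlap. In the fit without a filter its log2 change was -0.71 ± 0.22 (limma, adjusted p = 0.105). It shares 20.4% of its 31-base words with Ggnbp1 on the opposite strand, which was higher in fusion libraries (38.5 and 26.8 TPM) than in control libraries (7.41 and 7.999 TPM). No label states a stranded kit, so reads from such a pair cannot be assigned to a gene by strand.

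Of the BH3-only members, Bad (chr19:6941861-6951899, plus strand) and Bid (chr6:120891930-120916853, minus strand) fell. Bad, which displaces Bcl2 and Bcl-xL partners unless phosphorylated and held by 14-3-3 proteins, had 9.02 and 5.99 TPM in fusion libraries against 92.0 and 82.9 TPM in control libraries. The groups did not overlap, and the log2 change was -3.40 ± 0.38 (limma, adjusted p = 0.00384), or -1.99 relative to the median. After median ratio scaling it was -1.72 (adjusted p = 0.0496), and with the GC and length correction it did not pass (-1.28, adjusted p = 0.067). Bid, which caspase 8 cleaves to link death receptors to mitochondria, had 0.218 and 0.585 TPM in fusion libraries against 8.98 and 10.7 TPM in control libraries. Its log2 change was -2.96 ± 0.40 (limma, adjusted p = 0.0048), or -1.55 relative to the median, and -1.91 after median ratio scaling (adjusted p = 0.0242). Bad shares 18.4% of its 31-base words with Gpr137 and Bid 16.9% with Bcl2l13, both on the opposite strand. Gpr137 had 1.58 and 2.12 TPM in fusion libraries against 2.93 and 7.59 TPM in control libraries, and Bcl2l13 had 0.0108 and 1.25 TPM against 7.03 and 9.53 TPM.

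The other BH3-only members were near or below 1 TPM and were not tested. Bbc3, which encodes the p53 target Puma, was listed at 0 in both fusion libraries and had 0.499 and 0.516 TPM in control libraries. Pmaip1, which encodes Noxa, a partner of Mcl1, was listed at 0 in fusion replicate 1 and had 0.269 TPM in fusion replicate 2, against 0.597 and 0.279 TPM in control libraries. Bcl2l11, which encodes Bim, had 0.00748 and 1.13 TPM in fusion libraries against 0.275 and 0.359 TPM in control libraries. The fusion values of Bcl2l11 lay on either side of the controls and those of Bbc3 and Pmaip1 below them; for Pmaip1 the nearest fusion and control values, 0.269 and 0.279 TPM, were almost equal. In the fit without a filter, in which 18.4% of 24923 genes were lower, Bbc3 passed (-0.59 ± 0.08, limma, adjusted p = 0.0323), and Pmaip1 (-0.34, adjusted p = 0.312) and Bcl2l11 (0.16, adjusted p = 0.801) did not. Over all 10 members, both fusion libraries lay below both control libraries for 8, beside 71.1% of the genes that passed the filter. No such share was computed for genes below the filter, and for Bcl2, Bcl2l1 and Bid the filter itself fixed this order. The groups overlapped for 2 members, Mcl1 and Bcl2l11.

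**Figure D2:**
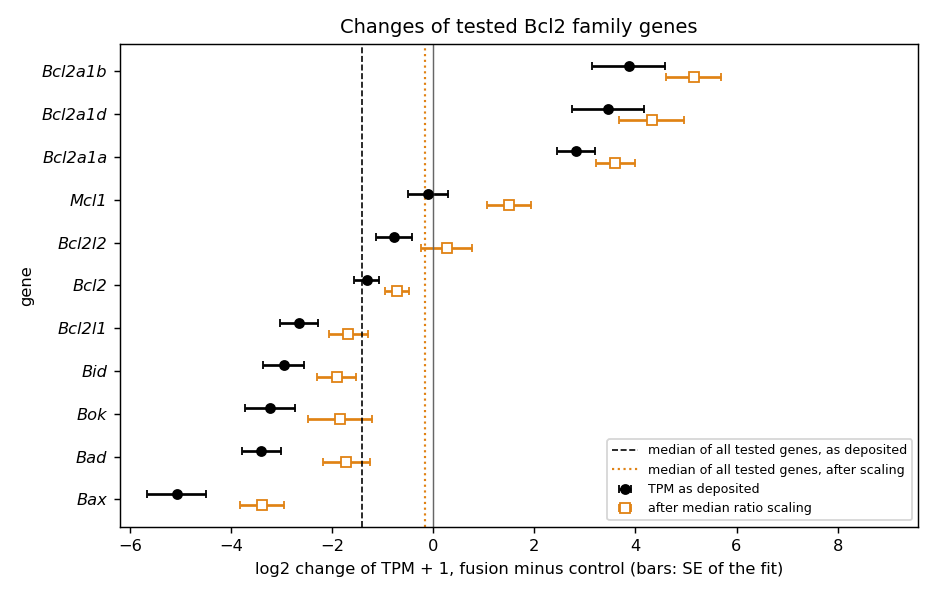
Log2 change of TPM + 1, fusion minus control, with the SE of the limma fit, for the tested members and their tested relatives, from TPM as deposited (black circles) and after median ratio scaling (orange squares). Vertical lines mark the median change of all tested genes, -1.41 as deposited and -0.15 after scaling, and Bax and the Bcl2a1 genes lie farthest from them on opposite sides.

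The order of the members within a library differed between the genotypes. In control libraries the order began with Bax and Bad, whose levels were 3.82 and 4.36 times apart. Bid and Mcl1 followed at levels that did not differ beyond their spread (9.82 ± 1.19 and 9.89 ± 0.94 TPM, SD, n = 2), and then Bcl2l1, Bcl2 and Bak1. Bbc3, Pmaip1 and Bcl2l11 came last, in an order that differed between the control libraries. In fusion libraries the first 3 were Mcl1, Bad and Bax in replicate 1 and Bax, Mcl1 and Bad in replicate 2, and these 3 did not differ beyond their spread (Bax 11.2 ± 8.51, Mcl1 9.14 ± 0.79 and Bad 7.51 ± 2.14 TPM). Bax made up 20.8% and 50.3% of the summed TPM of the 10 members in fusion libraries, against 74.5% and 75.9% in control libraries. Mcl1 made up 39.3% and 25.2% in fusion libraries, against 2.23% and 1.94% in control libraries. The sum itself was 24.7 and 34.1 TPM in fusion libraries and 472 and 476 TPM in control libraries. Without Bax it was 19.5 and 16.9 TPM in fusion libraries against 121 and 115 TPM in control libraries.

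**Figure D3:**
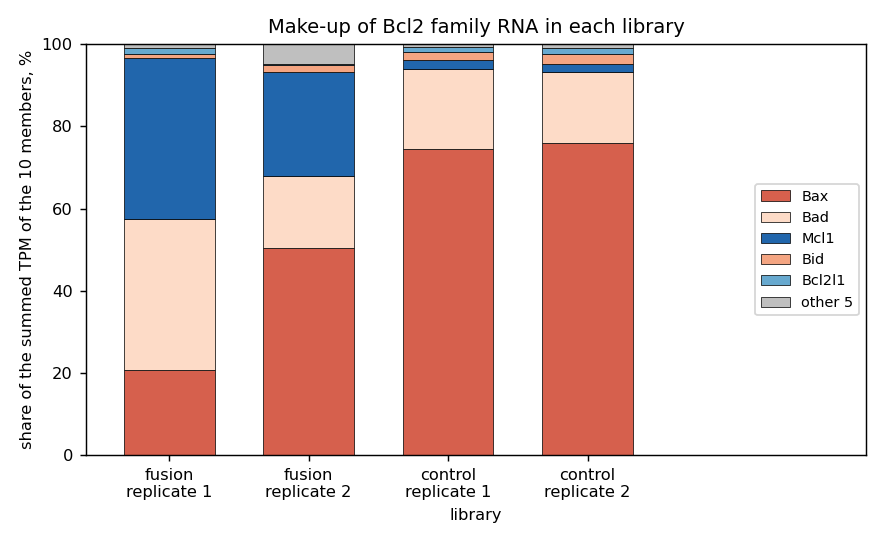
Share of the summed TPM of the 10 members taken by Bax, Bad, Mcl1, Bid and Bcl2l1 and by the other 5 together, in percent, in each library. The genes drawn singly are the 5 most abundant in both control libraries. In fusion replicate 2 the other 5 include Bcl2l11 at 3.32%, which there exceeds Bcl2l1. Bax and Bad fill most of both control bars, and Mcl1 takes 39.3% and 25.2% of the fusion bars against 2.23% and 1.94% of the control bars.

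A ratio of genes within 1 library does not depend on how that library was scaled. The log2 ratio of the pro-survival sum over the effector sum was 0.95 and -1.01 in fusion libraries against -4.33 and -4.26 in control libraries, a difference of 4.27. Over the BH3-only sum it was 0.14 and 0.12 in fusion libraries against -2.55 and -2.32 in control libraries, a difference of 2.56. Both ratios were higher in both fusion libraries, and both rest on few genes: Mcl1 above the line, and Bax or Bad below it. Bax made up 5.14 of 5.26 and 17.2 of 17.5 TPM of the effector sum in fusion libraries. In control libraries it made up 352 of 353 and 361 of 362 TPM. Bad was the larger part of the BH3-only sum in all 4 libraries. With Mcl1 left out, Bcl2 and Bcl2l1 over the effectors gave -3.43 and -7.60 in fusion libraries against -5.66 and -5.22 in control libraries, where the groups overlap. Over the BH3-only sum the same pair gave -4.24 and -6.47 in fusion libraries against -3.88 and -3.28 in control libraries, lower in both. As plain ratios, Bax had 0.53 and 2.0 times the TPM of Mcl1 in fusion libraries and 33.3 and 39.2 times in control libraries. These ratios are given as a description and were not tested.

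Pairs of proteins known to bind each other were compared as log2 ratios of TPM + 1, a pseudocount that the sums above do not have, so the sizes are not comparable with those above. Bcl2l1 over Bax was -2.19 and -4.06 in fusion libraries against -5.75 and -5.36 in control libraries, and Bcl2 over Bax was -2.42 and -4.18 against -7.20 and -6.93. Mcl1 over Bak1 was 3.26 and 2.90 in fusion libraries against 2.69 and 2.25 in control libraries, and Mcl1 over Bbc3 was 3.42 and 3.26 against 2.95 and 2.75. Each of these 4 ratios was higher in both fusion libraries, but those with Bcl2l1 or Bcl2 set values near 0 over Bax and depend on the pseudocount. With a pseudocount of 0.1, Bcl2l1 over Bax was -3.56 and -6.51 in fusion libraries against -5.96 and -5.52 in control libraries, where the groups overlap, and its difference was 0.70 in place of 2.43. With no pseudocount it was -3.90 and -7.57 in fusion libraries against -5.98 and -5.53 in control libraries. The difference in Bcl2 over Bax was 1.74 with a pseudocount of 0.1 and 3.76 with 1, that in Mcl1 over Bak1 1.76 and 0.61, and that in Mcl1 over Bbc3 2.49 and 0.49. Bcl2 over Bcl2l11 was 0.18 and -1.09 in fusion libraries against 0.91 and 1.12 in control libraries, the pair that was lower in both, with a difference of -1.47, and of -3.30 with a pseudocount of 0.1. Bcl2l1 over Bad was -2.90 and -2.68 against -3.83 and -3.25, and turned to a difference of -0.97 with a pseudocount of 0.1. Mcl1 over Pmaip1 (3.42 and 2.92 against 2.85 and 3.00) and Bcl2l1 over Bid (0.14 and -0.54 against -0.61 and -0.41) overlapped between the groups.

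**Figure D4:**
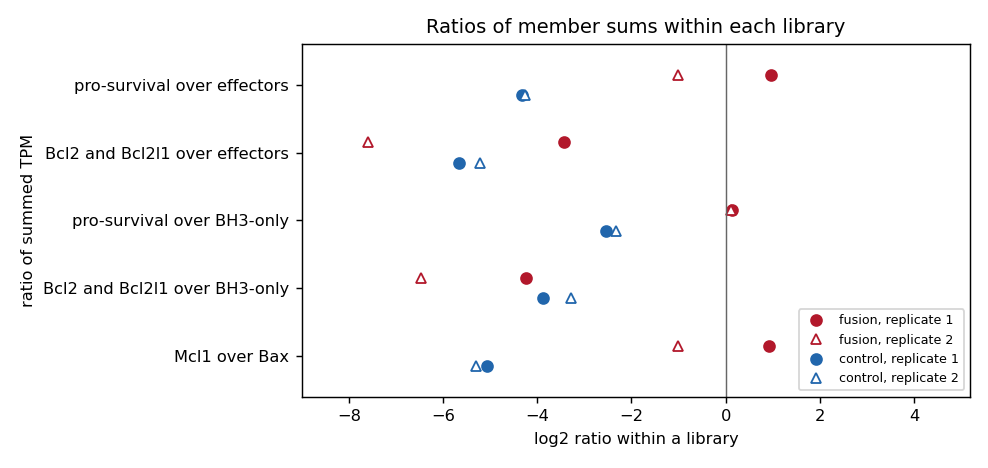
Log2 ratios of summed TPM of member groups within each library, fusion in red above control in blue. The pro-survival sum over effectors and over BH3-only genes lies to the right in both fusion libraries, and the ratios that leave out Mcl1 do not.

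Among the pro-survival relatives, the Bcl2a1 genes, which encode copies of A1, a short-lived pro-survival protein known mainly from blood and immune cells, rose while the median gene was lower. Bcl2a1a had 4.501 and 8.09 TPM in fusion libraries and was listed at 0 in both control libraries (log2 change 2.82 ± 0.38, limma, adjusted p = 0.0047). Bcl2a1b had 18.1 and 56.6 TPM in fusion libraries against 0.542 and 2.34 TPM in control libraries (3.87 ± 0.72, limma, adjusted p = 0.0094). Bcl2a1d had 5.03 and 22.9 TPM in fusion libraries against 0.0601 and 0.128 TPM in control libraries (3.46 ± 0.72, limma, adjusted p = 0.0128). Both fusion libraries lay above both controls for all 3 genes, as they did for 10.2% of all tested genes. For Bcl2a1a and Bcl2a1d this order was fixed in advance, since they passed the filter only through the fusion libraries. All 3 passed after median ratio scaling, with changes of 3.604, 5.16 and 4.32, and none passed when either control library was left out (adjusted p 0.112 to 0.205). Bcl2a1d also did not pass without the filter (adjusted p = 0.063).

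The 3 Bcl2a1 genes are near-identical copies on chromosome 9, and 79.6% (Bcl2a1a), 88.8% (Bcl2a1b) and 89.1% (Bcl2a1d) of their 31-base words also occur in another gene, so how reads were split among them is uncertain. Their sum does not depend on that split: it was 27.7 and 87.6 TPM in fusion libraries against 0.602 and 2.47 TPM in control libraries (57.6 ± 42.4 and 1.53 ± 1.32 TPM, SD, n = 2 each). In both fusion libraries this sum exceeded the sum of Bcl2, Bcl2l1 and Mcl1, and in both control libraries it was below it. The start windows of Bcl2a1a and Bcl2a1b, shifted against each other by 44 bases, matched at 254 of 256 bases (99.2%). The 30 bases around the PU box are printed from all 3 copies, at chr9:88956805-88956834 on the plus strand for Bcl2a1a, chr9:89199114-89199143 on the plus strand for Bcl2a1b and chr9:88731936-88731965 on the minus strand for Bcl2a1d (RefSeq, GRCm38.p6), with GAGGAAGT in capitals.
Bcl2a1a: cagaagaggaaGAGGAAGTggtgtgttgct
Bcl2a1b: cagaagaggaaGAGGAAGTggtgtgttgct
Bcl2a1d: ctgaatcagaaGAGGAAGTggtgtgttgct

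Some markers of microglia and macrophages were also higher. The summed TPM of 12 listed genes was 169 and 247 in fusion libraries against 81.8 and 24.5 in control libraries. Of 9 tested, 3 rose (Tyrobp, Aif1 and Ctss), 1 fell (P2ry12) and 5 did not pass. Between the fusion libraries the marker sum and the Bcl2a1 sum (27.7 and 87.6 TPM) ran in the same order. Between the control libraries they ran in opposite order (81.8 and 24.5 TPM for the markers, 0.602 and 2.47 TPM for Bcl2a1). P2ry12, a marker of resting microglia, was listed at 0 in both fusion libraries, and Cx3cr1 was listed at 0 in fusion replicate 1. The part of these cells in the Bcl2a1 values was not tested.

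No other relative passed as higher. Bcl2l2, which encodes the pro-survival protein Bcl-w, had 1.34 and 0.466 TPM in fusion libraries against 2.09 and 2.28 TPM in control libraries (-0.78 ± 0.36, limma, adjusted p = 0.116), and its change was 0.27 after median ratio scaling. Bok, an effector-like protein that can act without Bax and Bak1, fell, with 1.7997 and 0.563 TPM in fusion libraries against 16.4 and 20.98 TPM in control libraries (-3.22 ± 0.50, limma, adjusted p = 0.006). It did not pass after median ratio scaling (-1.85, adjusted p = 0.0831). Bcl2l10 and Bik were listed at 0 in all 4 libraries. The BH3-only genes Hrk (0 and 0.00551 TPM in fusion libraries against 0.264 and 0.231 TPM in control libraries) and Bmf (0 and 0.398 TPM against 0.0845 and 0.0144 TPM) were below the filter.

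Genes that act beside or after the family were read from 9 lists, whose medians are set beside the -1.41 of all genes, and whose counts stand beside 51.3% of all tested genes lower and 4.95% higher (18.6% and 14.3% after median ratio scaling). In the 6 lists below with 0 higher genes, limma at an unadjusted p under 0.05 also gave 0, except for 1 gene (Apaf1) of the apoptosome list. Among Bcl2-like and Bnip proteins 5 of 7 tested fell, 0 rose, and the median was -2.80, with 3 lower after median ratio scaling. Bnip1, which works in vesicle fusion at the endoplasmic reticulum, had 0.606 and 3.88 TPM in fusion libraries against 52.7 and 55.0 TPM in control libraries (-4.29, limma, adjusted p = 0.00538). Becn1, the autophagy protein that Bcl2 binds, had 9.61 and 23.9 TPM in fusion libraries against 187 and 186 TPM in control libraries (-3.53, limma, adjusted p = 0.00512). Becn1 shares 40.0% of its 31-base words with Cntd1 on the opposite strand, which stayed below 1 TPM in all 4 libraries. Bnip2 (-3.40) and the mitophagy receptor Bnip3l (-2.80) also fell, Bnip3l not after median ratio scaling (-1.04, adjusted p = 0.143). Among 6 mitochondrial partners 5 fell, 0 rose, and the median was -2.50, with 2 lower after median ratio scaling. Tmbim6, the Bax inhibitor 1 of the endoplasmic reticulum, had 15.2 and 34.4 TPM in fusion libraries against 475 and 635 TPM in control libraries (-4.52, limma, adjusted p = 0.00383). The outer membrane channels Vdac3 (-2.69), Vdac2 (-2.66), which recruits Bak1, and Vdac1 (-2.35) also fell.

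The next lists are the apoptosome and released factors, caspases, inhibitors of apoptosis and the death receptor pathway. Their medians ran from -1.80 to -1.35, beside -1.41 of all genes. After median ratio scaling they ran from -0.82 (apoptosome list) to 0.02 (inhibitors of apoptosis), beside -0.15 of all genes. Of 7 tested genes of the apoptosome and released factors, 4 fell, 0 rose and 3 did not pass (median -1.80), and after median ratio scaling 3 were lower and 2 higher. Htra2, a released protease that removes inhibitors of apoptosis, was listed at 0 in fusion replicate 1 and had 0.0326 TPM in fusion replicate 2, against 30.2 and 35.5 TPM in control libraries (-5.05, limma, adjusted p = 0.00367). Diablo, which encodes Smac, had 22.7 and 20.3 TPM in fusion libraries against 169 and 225 TPM in control libraries (-3.13, limma, adjusted p = 0.00384). Aifm1 (-2.49) and the initiator caspase Casp9 (-1.80) also fell. Apaf1 and Cycs, named after their values were seen, are the scaffold of the apoptosome and cytochrome c. Apaf1 had 16.4 and 12.4 TPM in fusion libraries against 6.68 and 4.26 TPM in control libraries, and Cycs 138 and 289 TPM against 123 and 104 TPM. Neither passed (limma, adjusted p = 0.0579 and 0.18), and after median ratio scaling both rose, by 2.81 and 2.57 (adjusted p = 0.0203 and 0.0112).

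Of 8 tested caspases 3 fell, 1 rose and 4 did not pass (median -1.46), and after median ratio scaling 2 were lower and 1 higher. Casp4, an inflammatory caspase that responds to bacterial lipopolysaccharide, rose to 5.39 and 10.997 TPM in fusion libraries and was listed at 0 in both control libraries (3.13 ± 0.44, limma, adjusted p = 0.00494). Casp6 (-3.16), Casp2 (-2.36) and Casp9 fell. Of 5 tested inhibitors of apoptosis 2 fell, 1 rose and 2 did not pass (median -1.66), and after median ratio scaling 0 were lower and 2 higher. Birc3, encoding cIAP2, rose to 5.45 and 11.4 TPM in fusion libraries, against 1.37 and 1.25 TPM in control libraries (1.96 ± 0.49, limma, adjusted p = 0.0224). Birc2, encoding cIAP1, fell (-2.31), as did the mitotic gene Birc5, encoding survivin (-1.89, and -0.13 with adjusted p = 0.772 after median ratio scaling). Of 5 tested death receptor genes 2 fell, the adaptors Tradd (-2.04) and Fadd (-1.86), 1 rose and 2 did not pass (median -1.35), and after median ratio scaling 1 was lower and 1 higher. The riser was Cflar, which encodes the caspase 8 inhibitor cFLIP, with 73.8 and 86.3 TPM in fusion libraries against 33.2 and 42.6 TPM in control libraries (1.07 ± 0.35, limma, adjusted p = 0.0473). Its adjusted p ranged up to 0.236 over the alternatives, and it did not pass in 6 of 16.

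The remaining lists hold upstream regulators. Of 5 tested transcription factors of BH3-only genes 2 fell and 0 rose (median -1.20), a share near that of all genes, and 1 was lower after median ratio scaling. Trp53, the activator of Bbc3, Pmaip1 and Bax, had 5.98 and 13.1 TPM in fusion libraries against 70.8 and 82.1 TPM in control libraries (-2.96 ± 0.47, limma, adjusted p = 0.00638), and Atf4 fell by 2.06 on the log2 scale. Of 10 tested Bad kinases and 14-3-3 proteins 9 fell and 0 rose (median -2.20), and after median ratio scaling 3 were lower and 1 higher. Prkaca, a catalytic subunit of protein kinase A, had 1.22 and 0.647 TPM in fusion libraries against 24.0 and 21.2 TPM in control libraries (-3.62, limma, adjusted p = 0.00393). The 14-3-3 genes Ywhaz (-3.46), Ywhae (-3.06) and Ywhaq (-2.76) fell too. Of 6 tested Mcl1 turnover genes 4 fell and 0 rose (median -1.72), and 1 was lower after median ratio scaling. The 4 were the ubiquitin ligase genes Btrc (-3.42), Fbxw7 (-1.74) and Huwe1 (-1.70), whose products mark Mcl1 for degradation, and the deubiquitinase gene Usp13 (-1.75), whose product spares it and which was listed at 0 in both fusion libraries.

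**Figure D5:**
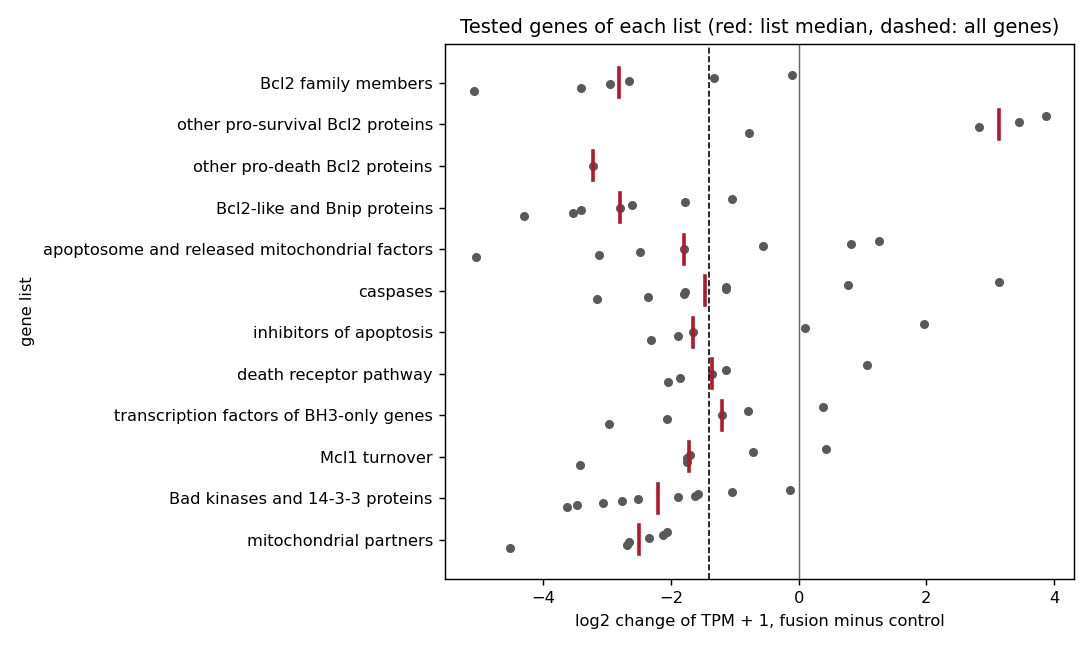
Log2 change of TPM + 1, fusion minus control, of each tested gene (grey points) in the member list and 11 further lists, with the list median in red and the median of all tested genes (-1.41) as a dashed line. Most list medians lie near or below the dashed line, while Casp4, Birc3, Cflar and the Bcl2a1 genes, which passed the threshold, lie to the right of 0. Some genes that did not pass, among them Apaf1 and Cycs, also lie to the right of 0.

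Of the 45 tested genes taken by the naming rule, 43 passed the threshold, a number that the rule largely fixes because it takes genes past the threshold from most lists. Of these, 26 also passed in the same direction after median ratio scaling. The other 17 were Bcl2, Bok, Bnip3l, Aifm1, Casp2, Birc2, Birc5, Fadd, Atf4, Btrc, Fbxw7, Huwe1, Ywhaq, Vdac1, Vdac2, Mn1 and Pdgfra. Without control replicate 1 it was 5 of the 43, and without control replicate 2 it was 4. Summed TPM of 11 immediate early genes, which dissociation can raise, was 24.7 and 41.9 in fusion libraries against 102 and 142 in control libraries. The median change of the 9 tested was -1.01, which is 0.40 above that of all genes, and after median ratio scaling 0 were lower and 0 higher.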

How the data were processed

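RNA was measured in 4 libraries of sorted Pdgfra lineage cells, 2 per genotype, grouped by the genotype in the sample titles and matched to columns by genotype and replicate number. Per the labels' protocols, cDNA came from a single-cell full-length kit, without molecular identifiers, and was read as 100 bp pairs on an MGISEQ-2000 after 30 min of papain digestion. The values are TPM that the authors computed and deposited as 1 table of 54348 rows, in which each library sums to 1000000. The submitters' processing notes name Trimmomatic 0.39, Salmon 1.8.0, GRCm38 and mm10. Neither the index nor the summing to genes is given in the sources used here. TPM keeps no depth, so depth per library is unknown, no counting interval is given, and a 0 is only described as listed at 0.

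The 12871 genes that reached 1 TPM in 2 or more libraries were tested on log2(TPM + 1), a scale that understates the change of low genes, with limma 3.58.1 in R 4.3.3 (trend, 2-sided, 3.25 prior and 2 residual degrees of freedom), adjusted over all of them. The fit was tested on simulated data. The alternatives tried were other pseudocounts (0.1 and 5), other filters (none, or a mean of 5 TPM), other scalings (quantile normalization, median ratios over 10965 genes, removal of mitochondrially encoded and ribosomal protein genes), limma with no trend, limma with a robust prior, a replicate block, and leaving out each library. A GC content and length correction (12862 of 12871 genes had values) and removal of mitochondrially encoded genes alone were chosen after seeing the data. Coordinates and the 31-base words came from GENCODE M21, which holds 54094 of the 54348 identifiers and all 10 members. Start windows came from RefSeq on GRCm38.p6.

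The members and lists were chosen with earlier results of these data known. Named are all members, all genes of the lists of other pro-survival and other pro-death relatives, and in each other pathway list up to 4 genes past the threshold with the largest change. Apaf1 and Cycs were added after their values were seen.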

Additional observations from a re-analysis of the deposited data

How the results depend on the processing

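Of 12871 tested genes, 637 were higher and 6606 lower in fusion libraries. The count of higher genes was 353 with no filter, 405 with a mean of at least 5 TPM, 1843 with median ratio scaling, 1948 with quantile normalization, 970 without mitochondrially encoded and ribosomal protein genes, 978 without mitochondrially encoded genes and 1949 with the GC content and length correction, and it ranged from 14 to 1084 with 1 library left out. The count of lower genes was 2392 with median ratio scaling, 1955 with quantile normalization and 2001 with the GC content and length correction, and ranged from 1025 to 7987 with 1 library left out. The causes were not tested. Members called lower (5) numbered 3 with a mean of at least 5 TPM, under which Bcl2 and Bcl2l1 are not tested, 3 with quantile normalization, 2 with the GC content and length correction and 0 to 5 with 1 library left out; 1 member, Mcl1, was called higher with the GC content and length correction. The change of Mcl1 (-0.10) was 1.496 with median ratio scaling, 1.53 with quantile normalization, 0.49 without mitochondrially encoded and ribosomal protein genes, 0.43 without mitochondrially encoded genes and 1.70 with the GC content and length correction. In the same way Bcl2l2 turned to 0.27, 0.60 and 1.11 with median ratio scaling, quantile normalization and the GC content and length correction, Casp9 to 0.33 with that correction, and Pdgfra to 0.46 and 0.48. The difference in pro-survival over effectors (4.27) was -0.0743 without Mcl1 and 3.28 to 5.25 with 1 library left out, and that over BH3-only genes (2.56) was -1.78 and 2.45 to 2.68. The ratio of Bcl2l1 over Bad turned to -0.97 and that of Bcl2l1 over Bid to -0.12 with a pseudocount of 0.1. With 1 library left out, Bcl2l1 over Bid ranged from -0.0339 to 0.65 and Mcl1 over Pmaip1 from -0.009 to 0.49. A replicate block gave 642 genes higher, 6978 lower and 5 members lower. Over tested genes, the deviations of libraries of the same number from their group means had a correlation of -0.04. With 2 libraries per group this value cannot show whether the numbers pair libraries. A fit with 1 library in a group assumes that it varies like the other group. Members below 1 TPM are limited by the unknown depth.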
